A study of Homo sapiens with 17 samples.

Results

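The acid-sensing ion channel genes ASIC1, ASIC2, ASIC3 and ASIC4 were followed through 8 RNA libraries and 4 histone peak lists of human neurons with and without UTX. These 4 genes, taken by name out of the 60199 rows of the gene count table, were selected on RNA levels and H3K27me3 peaks that were already known, so their KO and WT values below are a description and support no test. All 4 passed the filter on low counts that left 18614 genes for testing.

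ASIC proteins are sodium-permeable channels of the degenerin and epithelial sodium channel superfamily that open when extracellular pH drops. ASIC1 carries most of the proton-gated current of central neurons, ASIC2 assembles with it and changes its pH response, and ASIC3 is best known from peripheral sensory neurons. ASIC4 does not form a proton-gated channel on its own. H3K27me3, the mark written by Polycomb repressive complexes, accompanies gene silencing, UTX (KDM6A) is a demethylase that removes it, and H3K36me3 is laid down over the bodies of transcribed genes.

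All samples came from H9, a human embryonic stem cell line, at passage 40, differentiated through embryoid bodies and neural progenitors to neurons of day 40. The wild-type group (WT) had 3 RNA libraries, and the lines UTX KO1 and UTX KO2 had 3 and 2, making 5 KO libraries that share the UTX knockout label. The sources used here do not say how each line was made or whether it is 1 clone. H3K27me3 and H3K36me3 were profiled by ChIP-seq, with 1 deposited peak list for each mark and genotype, so the peaks have no replicate check. The series' design text calls the RNA libraries biological replicates without saying that they came from separate differentiations, and p-values therefore measure the spread between these libraries, part of which may be technical.

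The RNA libraries held 17374464 to 31526910 estimated counts. Expression is given as CPM, estimated counts scaled to the size of the library. KDM6A RNA itself ranged from 35.18 to 36.03 CPM in the wild-type libraries and from 25.9 to 40.8 CPM in the KO libraries, which does not check the genotype, as the sources used here do not give the position of the edit. Pan-neuronal markers were detected in every library, 10 of 10, with a summed level of 3565 to 5232 CPM in WT, 3826 to 4683 CPM in KO1 replicates 1 and 3, and 739 to 2386 CPM in KO1 replicate 2 and both KO2 libraries. The latter 3 libraries also held 23888 to 62391 CPM of 8 mesenchymal markers, against 67.3 to 1572 CPM in WT and 890 to 1097 CPM in the other 2 KO libraries, and are called high-collagen libraries here after COL1A1. KO line 2 has no library outside this set, and line and high collagen were not fitted together. In such bulk RNA, fewer cells of a type and less RNA per cell cannot be told apart either.

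A listed promoter of ASIC1, of ASIC2 and of ASIC3 is shown to place the H3K27me3 peaks: that of ASIC2 lay inside a peak in both lists, that of ASIC1 had a peak upstream in the KO list only, and that of ASIC3 had its peaks downstream. The ASIC2 start is internal, 863 kb downstream of the 5′ end of the gene span, and is the only start listed for that gene. The sequences are RefSeq promoters of GRCh38.p14 (250 bases before to 50 after a listed start), printed 5′ to 3′ on the gene's strand, with each CpG dinucleotide in capitals. They are ASIC1 at chr12:50057920-50058219 on the plus strand, ASIC2 at chr17:33293246-33293545 on the minus strand, and ASIC3 at chr7:151048042-151048341 on the plus strand.
ASIC1: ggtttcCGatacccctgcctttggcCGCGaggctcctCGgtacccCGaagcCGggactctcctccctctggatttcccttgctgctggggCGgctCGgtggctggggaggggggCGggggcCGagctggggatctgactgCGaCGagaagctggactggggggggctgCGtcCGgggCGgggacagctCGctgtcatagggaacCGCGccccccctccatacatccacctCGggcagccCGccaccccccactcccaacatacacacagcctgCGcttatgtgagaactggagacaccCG
ASIC2: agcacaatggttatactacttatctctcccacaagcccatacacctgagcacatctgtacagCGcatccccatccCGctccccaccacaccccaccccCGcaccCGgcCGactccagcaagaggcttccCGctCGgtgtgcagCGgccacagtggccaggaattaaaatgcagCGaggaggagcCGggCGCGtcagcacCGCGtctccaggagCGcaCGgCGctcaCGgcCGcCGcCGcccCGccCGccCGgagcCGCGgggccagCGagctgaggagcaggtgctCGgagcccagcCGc
ASIC3: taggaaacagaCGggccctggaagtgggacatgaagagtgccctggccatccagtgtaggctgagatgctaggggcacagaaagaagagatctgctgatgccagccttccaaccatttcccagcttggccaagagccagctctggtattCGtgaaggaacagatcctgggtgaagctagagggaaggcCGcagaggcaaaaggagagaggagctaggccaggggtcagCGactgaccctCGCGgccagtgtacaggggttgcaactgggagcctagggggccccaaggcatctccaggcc
The motif searched was CG, which reads the same on both strands. ASIC2 held 29 of them, a number reached by 24.2% of the 35116 listed promoters, ASIC1 held 22 (reached by 37.7%) and ASIC3 held 6 (reached by 66.3%). The median over all promoters was 14. The other listed start of ASIC3 had 12 CpG and the remaining starts of ASIC1, at chr12:50070346-50070645 and chr12:50073163-50073462, had 6 and 5, so only the outermost ASIC1 start exceeded the median among the 3 listed for that gene.

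ASIC1, the main proton-gated subunit of central neurons, was lower in every KO library than in every WT library. Its level was 53.1, 53.4 and 62.9 CPM in WT replicates 1 to 3, 33.7, 24.0 and 29.6 CPM in KO1 replicates 1 to 3, and 36.5 and 27.8 CPM in KO2 replicates 1 and 2. The means were 56.5 ± 5.54 CPM for the wild type (SD, n = 3) and 30.3 ± 4.88 CPM for the knockout (SD, n = 5), and the groups did not overlap. Over all 18614 genes tested, 6.16% were lower in every KO library than in every WT library.

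The fitted ASIC1 log2 fold change, KO against WT, was -0.90 (SE 0.15), and it was -0.96 (SE 0.18) in KO1 and -0.82 (SE 0.20) in KO2. Between the lines it differed by 0.14 (SE 0.20), less than its own error. ASIC1 stood at rank 17 of the 18614 genes by edgeR p, and its false discovery rate was 0.243. The edgeR quasi-likelihood test called 0 genes at 0.05, the smallest false discovery rate being 0.0941. Without adjustment 3337 genes (17.9%) had an edgeR p under 0.05, and DESeq2 called 1243 (5.96%). Of the 4 ASIC genes, edgeR called 0 (0% of all genes tested) and DESeq2 called ASIC1 alone, in a comparison where 1.15% of all genes were called lower. The authors' deposited table lists ASIC1 at a log2 fold change of -0.89 (SE 0.17), with 0.000103 as its adjusted p, and has 1.24% of the tested genes lower. These values chose the family and are given without being read as evidence.

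**Figure D1:**
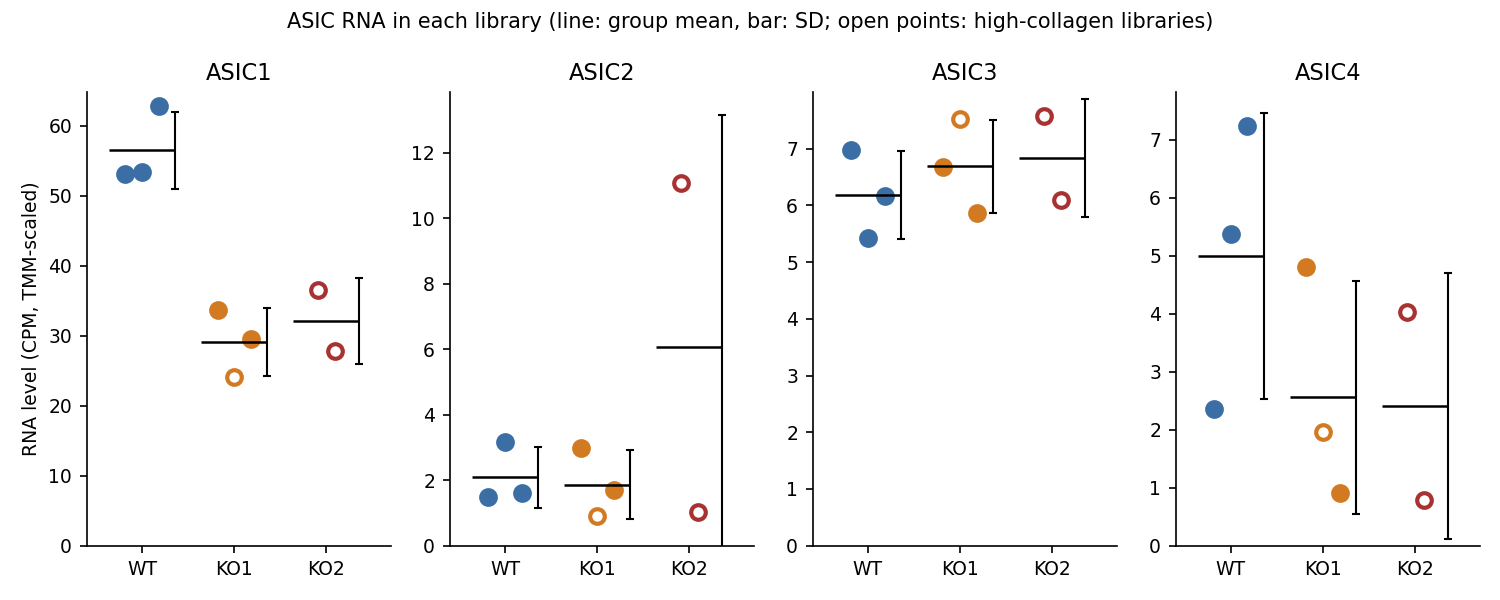
RNA level of each ASIC gene in TMM-scaled CPM (vertical axes from 0, a separate scale per gene) in WT, KO1 and KO2 libraries; points are libraries, open points the 3 high-collagen libraries, lines the group means and bars the SD, ending at 0 where they would pass it. ASIC1 sits at 53.1 to 62.9 CPM in WT and 24.0 to 36.5 CPM in KO, while the ASIC2, ASIC3 and ASIC4 groups overlap.

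The lower ASIC1 level was present in KO libraries with and without WT-like neuronal marker levels. In KO1 replicates 1 and 3, whose pan-neuronal sums lay inside the WT range, ASIC1 was at 59.6% and 52.4% of the WT mean. In the 3 high-collagen libraries it was at 42.5%, 64.6% and 49.2%. With these 3 libraries left out, the log2 fold change was -0.83 (SE 0.14) by edgeR, at a false discovery rate of 0.391. By DESeq2 it was -0.84 (SE 0.17), where the adjusted p was 0.000304 and 0.616% of all genes were called lower. This split was chosen after seeing the data, and ASIC1 was selected on its RNA, so these fits are no further evidence.

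Set against the neuronal markers, the picture differed by library. Per 1000 CPM of pan-neuronal markers, ASIC1 stood at 14.8, 10.2 and 17.6 CPM in WT replicates 1 to 3, at 8.80, 32.5 and 6.32 CPM in KO1 replicates 1 to 3, and at 15.3 and 17.5 CPM in KO2 replicates 1 and 2. KO1 replicates 1 and 3 were below all WT libraries on this scale, KO1 replicate 2 was above them, and both KO2 libraries were within the WT range. Sums of other markers set KO1 replicates 1 and 3 apart from WT, with epithelial sums of 61.4 and 23.6 CPM against 11.9 to 21.3 CPM. Their endothelial sums were 24.8 and 5.40 CPM against 1.74 to 4.22 CPM, and KDR alone held 18.1 CPM in KO1 replicate 1. Of these lists, KRT8, KRT19, CLDN6, KDR and TEK were above WT in both libraries. EPCAM, at 1.62 and 1.09 CPM in them, was within its WT range of 0.429 to 1.86 CPM, and PECAM1 had 0 counts in both. Within the mesenchymal list TAGLN stood at 312 and 51.0 CPM there against 5.97 to 19.1 CPM in the wild type, and ACTA2 at 151 and 25.8 CPM against 4.53 to 19.5 CPM. The part that cell composition has in the ASIC1 level was not tested.

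**Figure D2:**
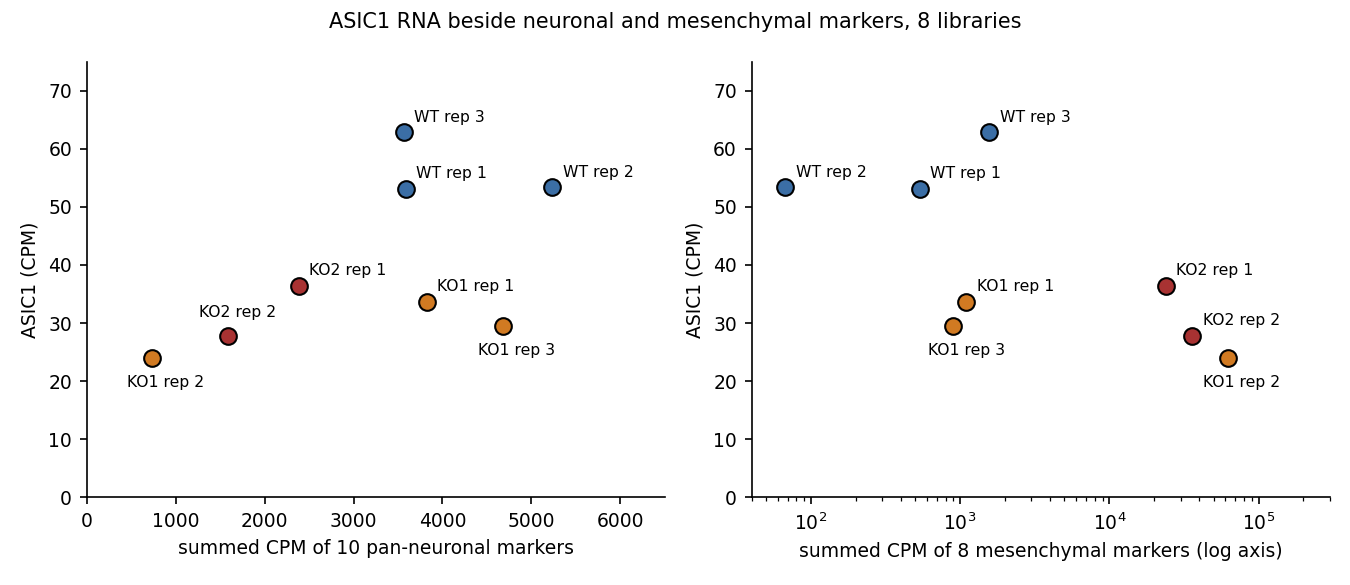
ASIC1 level (CPM) against the summed CPM of 10 pan-neuronal markers (left) and of 8 mesenchymal markers (right, log axis); each point is 1 of the 8 RNA libraries. KO1 replicates 1 and 3 lie within the WT range of both sums and hold 33.7 and 29.6 CPM of ASIC1, against 53.1 to 62.9 CPM in WT.

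The genes whose profile over the 8 libraries was most like that of ASIC1 were SEMA7A, a membrane-anchored semaphorin, PRRT2, a presynaptic protein, and GRIPAP1, a protein that binds the AMPA receptor partner GRIP1. Their root mean square difference from ASIC1, in log2 CPM centred on each gene's own mean, was 0.13, 0.14 and 0.14, against a median of 0.56 over the 16035 genes compared. The 3 wild-type libraries held 12.7, 13.6 and 16.6 CPM of SEMA7A, KO1 held 8.69, 6.45 and 9.55 CPM, and KO2 held 8.87 and 7.93 CPM. As these genes were chosen for their likeness, their own KO and WT difference is no further evidence.

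ASIC2, the subunit that joins ASIC1 in mixed channels, had no common direction. Its level was 1.50, 3.15 and 1.61 CPM in WT replicates 1 to 3, 2.98, 0.898 and 1.70 CPM in KO1 replicates 1 to 3, and 11.1 and 1.04 CPM in KO2 replicates 1 and 2. The groups overlapped, and KO2 replicate 1 stood apart from the 7 other libraries. The log2 fold change was 0.76 (SE 0.87), and without KO2 replicate 1 it turned to -0.33 (SE 0.50), so its direction rests on that library.

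Over the 8 libraries the 3 genes most like ASIC2 were INSYN2B, DPF3 and NGEF, at root mean square differences of 0.18, 0.30 and 0.31 against a median of 1.11. NGEF stood at 24.8 CPM in KO2 replicate 1 and at 1.85 to 6.45 CPM elsewhere. As these genes were chosen for their likeness, their high level in that library is no further evidence. KO2 replicate 1 also had the highest summed level of the 6 epithelial markers, 530 CPM against 11.9 to 21.3 CPM in WT, and of the 5 astrocyte markers, 438 CPM against 141 to 297 CPM in WT. KRT8 and KRT18 held 223 and 270 CPM of the epithelial sum, and SLC1A3 held 380 CPM of the astrocyte sum. EPCAM, KRT19, CLDN6, GFAP and S100B were also above WT there, while CDH1, AQP4 and ALDH1L1 were within their WT ranges. Whether the cells that carry these markers have a part in the ASIC2 level was not tested. The counts behind ASIC2 ran from 16 to 247 per library, so counting error weighs more here than for ASIC1, with 428 to 1557.

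ASIC3, the subunit known from sensory neurons that signal acid pain, was level across genotypes and libraries. Its level was 6.97, 5.42 and 6.17 CPM in WT replicates 1 to 3, 6.67, 7.52 and 5.87 CPM in KO1 replicates 1 to 3, and 7.57 and 6.09 CPM in KO2 replicates 1 and 2. The groups overlapped, with a highest-to-lowest ratio of 1.40 over the 8 libraries, and the log2 fold change was 0.12 (SE 0.19). Of the 18614 genes tested, 86.3% varied more over the 8 libraries.

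Sensory neuron markers were followed beside it. Of 10 markers 8 to 9 had at least 10 counts in a library, their sum was 35.1 to 61.5 CPM in WT, 44.2 to 47.3 CPM in KO1 replicates 1 and 3 and 30.7 to 39.4 CPM in the high-collagen libraries, and SCN10A, the sensory neuron sodium channel, had 0 counts in all 3 WT libraries and 0 to 4 counts in KO. Others of the list, named like SCN10A after their values were seen, were well covered: TRPV1 had 217 to 594 counts in every library. P2RX3, a purinergic receptor channel, stood at 7.74, 13.1 and 19.6 CPM in WT replicates 1 to 3. In the 5 KO libraries it stood at 1.12 to 2.82 CPM, so its groups did not overlap. DRGX, also of the list, went the other way at low counts, with 0.0811 to 0.240 CPM in WT and 0.347 to 1.01 CPM in KO. Over all genes tested, 6.16% were lower and 6.29% higher in every KO library than in every WT library. The genes most like ASIC3 were AC008079.1, UBLCP1 and GOLGA8B, at root mean square differences of 0.063, 0.064 and 0.065 against a median of 0.37.

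ASIC4, the member with no proton-gated current of its own, was lower on average in KO but with overlapping groups. Its level was 2.35, 5.38 and 7.24 CPM in WT replicates 1 to 3, 4.80, 1.96 and 0.910 CPM in KO1 replicates 1 to 3, and 4.03 and 0.793 CPM in KO2 replicates 1 and 2. WT replicate 1 was below KO1 replicate 1 and KO2 replicate 1. The log2 fold change was -0.998 (SE 0.66), larger in size than that of ASIC1 but with a wider error, and its false discovery rate by edgeR was 0.411.

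The spread of ASIC4 within WT, a highest-to-lowest ratio of 3.08, was exceeded on the log2 scale by 8.84% of the genes tested in the size of the WT SD. GABAergic interneuron markers also spread within WT, with sums of 13.0, 173 and 154 CPM in replicates 1 to 3, and the lowest was again replicate 1. In KO the order differed: the sums were 46.3, 19.5 and 62.1 CPM in KO1 replicates 1 to 3 and 16.1 and 27.2 CPM in KO2, so that KO1 replicate 3 had the highest KO sum with 0.910 CPM of ASIC4 and KO2 replicate 1 the lowest with 4.03 CPM. Of the 7 markers 6 reached 10 counts in each library, and LHX6 was at 0 counts in WT replicates 1 and 2 and KO2 replicate 2. The part of these cells in the ASIC4 level was not tested. AL080250.1, SKOR1 and CHCHD10 were most like ASIC4, at root mean square differences of 0.59, 0.61 and 0.61 against a median of 1.11, so no gene followed it as closely as SEMA7A followed ASIC1.

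The 4 genes did not share a profile with each other. ASIC1 and ASIC3 were the closest pair, at a root mean square difference of 0.55, and ASIC3 and ASIC4 the most distant, at 1.07. Even the closest pair was near or above the medians over the genes compared, 0.56 for ASIC1 and 0.37 for ASIC3. CPM is not scaled by transcript length, so the levels of the 4 genes are not compared with each other. ASIC5, the remaining gene of the ASIC group, had 1 count in WT replicate 1 and 0 in the other libraries. The gene span of ASIC2 overlaps the antisense genes ASIC2-AS1 and ASIC2-AS2, and that of ASIC4 overlaps ASIC4-AS1, which had 0 or 1 counts in each library. The sources used here do not say whether strand was used in counting.

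**Figure D3:**
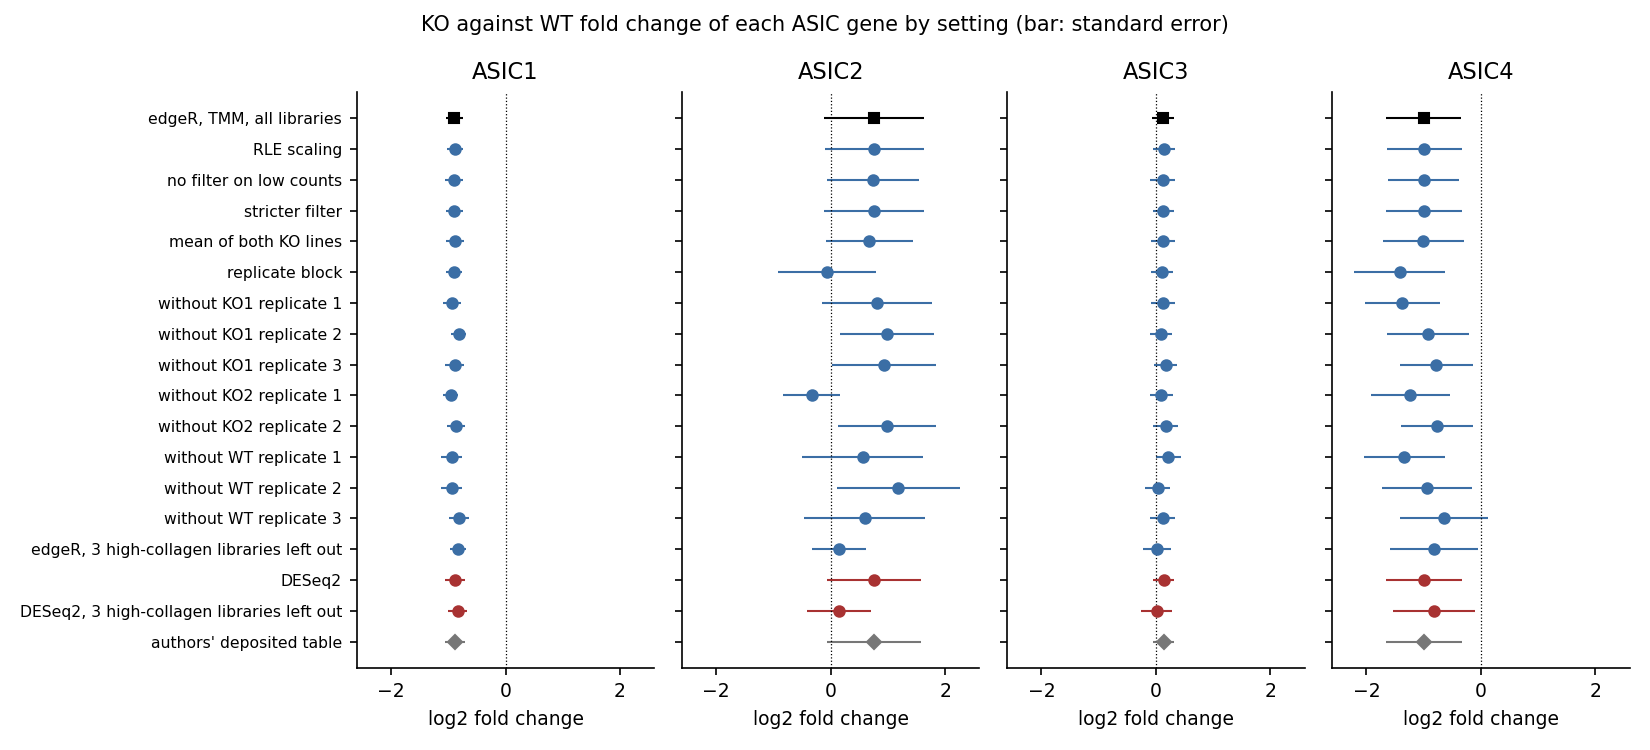
Log2 fold change, KO against WT, of each ASIC gene (horizontal axis) under the settings named on the rows; bars are standard errors, black squares edgeR with all libraries, blue other edgeR settings, red DESeq2 and grey the authors' deposited table. In the settings plotted, which do not include DESeq2 with each library left out, ASIC1 lies between -0.96 and -0.82 and ASIC4 below 0, while ASIC2 crosses 0 without KO2 replicate 1 and with the replicate block.

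H3K27me3 was present at ASIC2, ASIC3 and ASIC4 in both peak lists and at ASIC1 in the KO list alone. Within the gene spans widened by 2 kb there were 13 peaks at 3 genes in the WT list and 17 peaks at 4 genes in the KO list. Of the 15734 tested genes with a position, 18.3% had such a peak in the WT list, 19% in the KO list, 16.1% in both, 2.92% in the KO list only and 2.21% in the WT list only. The lists differ in depth, with 22448528 H3K27me3 tags for WT and 37594827 for KO, and the KO list is filed under both KO lines without a statement of which it was called on. Peak lists do not show which cells of a culture carried a mark, and the cell mix of the ChIP samples cannot be read from them.

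At ASIC1 (chr12:50057596-50083622, plus strand) the KO list held 1 peak, at chr12:50056235-50057119. It was 885 bp long, with a fold over control of 6.20 and a −log10 q of 14.3 as the authors give them, and it ended 477 bp before the gene span. Its summit was 1453 bp from the listed start whose sequence is shown above, and the peak did not reach those 300 bases, passing no closer than 801 bp. By fold it stood above 74.4% of the KO list, and the nearest WT peak was 93.9 kb away. Of the 460 genes with a peak in the KO list only, 53 (11.5%) were lower in KO RNA and 32 (6.96%) higher. These counts use an unadjusted edgeR p under 0.05. Of the 12390 with a peak in neither list, 840 (6.78%) were lower and 1302 (10.5%) higher. The lower shares were 5.19% for a peak in the WT list only and 5.99% for both lists, and the higher shares 32.3% and 20.1%. ASIC1 is 1 of the 53 and was chosen on this peak and its RNA, so these shares are no evidence about it. Whether its peak and its lower RNA are related was not tested.

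ASIC2 is a gene of 1144 kb (chr17:33013087-34156768, minus strand) and held 7 peaks in each list. The longest in each list covered the internal start shown above, not the 5′ end of the span: 4241 bp at chr17:33290142-33294382 with a fold of 11.7 in the WT list, and 4742 bp at chr17:33289822-33294563 with a fold of 8.65 in the KO list. They were longer than 94.0% of the WT list and 94.1% of the KO list. Further peaks lay at the 5′ end of the span, where the noncoding gene LOC105371735 overlaps it. Gene length bears on such counts, since 47.1% of the 68 tested genes with spans over 1 Mb had a peak in the WT list and 54.4% in the KO list.

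ASIC3 (chr7:151048292-151052756, plus strand) had 2 peaks in each list, all within the gene body and away from the start shown above, the nearest being 2350 bp from those bases in the WT list and 1873 bp in the KO list. Their folds were 4.43 and 5.28 in the WT list and 5.20 in both of the KO list, and each overlapped a peak of the other list. ASIC4 (chr2:219507093-219538772) had 4 peaks in the WT list and 7 in the KO list, all inside the span. Its longest WT peak, 2814 bp at chr2:219512775-219515588 with a fold of 7.62, was met in the KO list by 3 shorter peaks, and the longest KO peak was 1375 bp with a fold of 4.73. The higher number in the KO list thus includes 3 peaks that lie opposite 1 peak of the WT list.

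**Figure D4:**
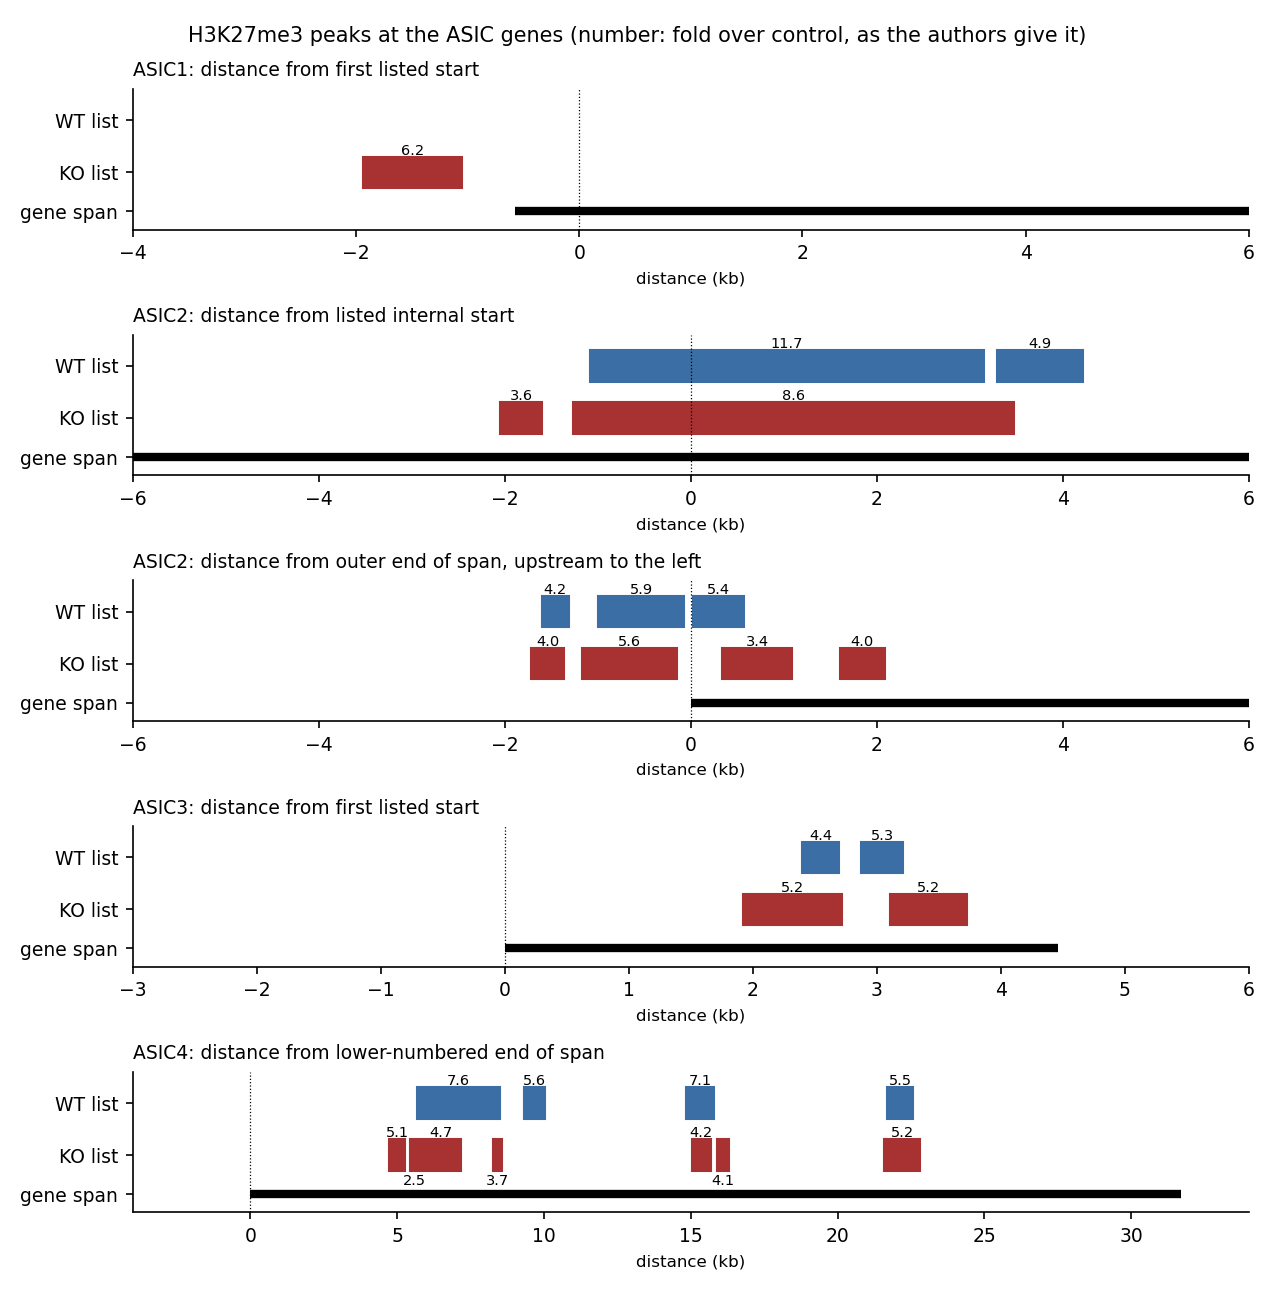
H3K27me3 peaks of the WT list (blue) and the KO list (red) by distance in kb from a gene start or span end, with the authors' fold over control beside each peak and the gene span in black; ASIC2 is shown at its listed internal start and at the 5′ (outer) end of its span. The ASIC1 panel has a peak in the KO list only, of fold 6.20, and the internal ASIC2 start lies under a long peak in both lists.

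H3K36me3, which had no part in choosing the genes, was not called inside any of the 4 spans in either list. The peaks of these lists were short, with a median length of 382 bp in the WT list and 254 bp in the KO list. A lack of such calls does not show a lack of the mark. Within 2 kb there were 3 WT peaks and 0 KO peaks: 1 beside ASIC3, overlapping CDK5, and 2 beside ASIC4, overlapping CHPF. Of all tested genes with a position, 46.4% had an H3K36me3 peak in this window in the WT list and 25.3% in the KO list, whose length also differed, 30144 against 8937 peaks. ASIC1 and ASIC2 had no H3K36me3 peak in this window in either list.

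Around the channels, the lists of partner and pH-handling genes are given with their counts called beside the shares of all genes. The single other degenerin-family gene tested was SCNN1D, an epithelial sodium channel subunit, whose WT mean of 11.7 ± 2.47 CPM (SD, n = 3) compared with a KO mean of 11.98 ± 1.42 CPM (SD, n = 5). SCNN1A, the next most abundant by its mean over the 8 libraries, did not pass the filter, averaging 0.0384 CPM in the wild type against 0.118 CPM in the knockout. The median log2 fold change over all genes tested was -0.01, beside which the medians of the lists below stand.

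Of 17 tested ASIC partners and modulators, edgeR called 0 at a false discovery rate of 0.05, 5 were higher and 1 lower by unadjusted p at 0.05 (11.5% and 6.45% of all genes), and DESeq2 called 2 higher and 0 lower (4.81% and 1.15%). S100A10, an annexin partner that aids surface delivery of ASIC1, was measured at 1.82, 2.02 and 1.56 CPM in WT replicates 1 to 3, at 7.33, 61.7 and 4.29 CPM in KO1 replicates 1 to 3 and at 41.1 and 34.8 CPM in KO2. Every KO library was above every WT library, as for 6.29% of all genes tested, and the 3 highest were the high-collagen libraries. The authors' deposited table gives it a log2 fold change of 4.07 (adjusted p 4.66e-05, in a table with 5.23% of the tested genes higher), and without the high-collagen libraries DESeq2 gave 1.67 (adjusted p 0.00679).

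RIPK1, a kinase reported to bind ASIC1 in acid-induced neuronal death, averaged 14.9 ± 1.92 CPM (SD) in the 3 WT libraries and 29.99 ± 8.65 CPM (SD) in the 5 KO libraries, with 0.0184 as the adjusted p of the authors' deposited table. Every KO library was above every WT library, as for 6.29% of all genes tested. Without the high-collagen libraries the DESeq2 log2 fold change of RIPK1 went from 1.02 to 0.47 with an adjusted p of 0.404, so it was not called. That fit has 2 KO libraries, KO1 replicates 1 and 3, at 21.8 and 19.6 CPM against 12.8 to 16.5 CPM in WT. PICK1, a PDZ protein that binds ASIC1 and ASIC2, averaged 24.2 ± 3.32 CPM in the 3 WT libraries and 31.6 ± 1.797 CPM in the 5 KO libraries (SD). CAMK2A, a calcium-dependent kinase of excitatory neurons, averaged 16.8 ± 1.23 CPM in the former and 8.20 ± 4.08 CPM in the latter (SD). Neither passed a false discovery rate of 0.05 with edgeR (0.243 and 0.272) or DESeq2. Their groups did not overlap, as for 6.29% of all genes tested on the higher side and 6.16% on the lower side. Without the high-collagen libraries the DESeq2 log2 fold change of CAMK2A went from -1.03 to -0.55 (adjusted p 0.449). That of PICK1 went from 0.39 to 0.34 (adjusted p 0.692). The median log2 fold change of the list was 0.39, and 0.02 without the high-collagen libraries, where DESeq2 called 1 member higher and 0 lower (0.921% and 0.616% of all genes).

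Of 6 tested proton-sensing channels and receptors outside the ASIC family, edgeR and DESeq2 each called 0, and 1 was higher and 0 lower by unadjusted p at 0.05. Over all genes the shares were 11.5% and 6.45% by unadjusted edgeR p and 4.81% and 1.15% by DESeq2. The higher gene, GPR132, a G protein-coupled receptor of immune cells, reached 1.03 to 4.27 CPM in the high-collagen libraries and stayed at 0.0343 to 0.365 CPM in the other 5, and without the former its DESeq2 log2 fold change turned from 3.47 to -0.37. PACC1, the proton-activated chloride channel, averaged 26.6 ± 4.03 CPM (SD) in the 3 WT libraries and 21.5 ± 4.88 CPM (SD) in the 5 KO libraries. TRPV1, the capsaicin receptor, averaged 14.5 ± 1.59 CPM and 13.4 ± 2.86 CPM (SD) in the same groups. The list had a median log2 fold change of -0.01, and of 0.27 without the high-collagen libraries.

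Of 16 acid-base transport genes, edgeR called 0, 1 was higher and 1 lower by unadjusted p at 0.05 (all genes 11.5% and 6.45%), and DESeq2 called 1 higher and 0 lower (all genes 4.81% and 1.15%). CA2, a cytosolic carbonic anhydrase, had 11.8, 9.12 and 8.58 CPM in WT replicates 1 to 3, then 25.7, 9.43 and 20.6 CPM in KO1 and 33.3 and 21.3 CPM in KO2. KO1 replicate 2 was within the WT range and the other 4 KO libraries were above it, and the authors' deposited table gives 0.0398 as its adjusted p. CA2 kept a DESeq2 call without the high-collagen libraries, at a log2 fold change of 1.23 and an adjusted p of 0.000200. SLC4A7, a sodium bicarbonate cotransporter, averaged 88.4 ± 18.7 CPM (SD) in the 3 WT libraries and 55.8 ± 15.9 CPM (SD) in the 5 KO libraries, with a false discovery rate of 0.251 by edgeR. Its DESeq2 log2 fold change was -0.65, and -0.29 (adjusted p 0.834) without the high-collagen libraries. The median log2 fold change of the list was -0.0042.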

How the data were processed

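RNA was measured in 8 libraries and histone marks in 4 peak lists. The authors deposited estimated counts per gene made with Salmon 1.1.0, per the submitters' processing notes, and these were rounded here. The authors' deposited table gives DESeq2 1.26.0 log2 fold changes, p-values, a Wald score (not printed) and a base mean (a signal of scaled counts, not printed). Peaks came from Bowtie2 2.4.1 and MACS2 2.2.7.1 (GRCh38 positions), with pileup signal, fold over control (a ratio) and −log10 q as the authors deposited them, called at a q of 0.01 per the file headers.

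Here edgeR 4.0.16 (filterByExpr, TMM, quasi-likelihood test, R 4.3.3) was fitted over all genes, with Benjamini-Hochberg adjustment and a threshold of 0.05. CPM uses the same scaling. The standard error of an edgeR fold change is its size over the square root of F. KO pools both lines, and each line was also fitted in a 3-group model. DESeq2 1.42.0, other filters and scaling, the replicate block, other peak windows and leave-outs were alternatives. Log2 CPM for likeness used a prior count of 2, over genes of mean log2 CPM of at least 0. Scripts were tested on simulated data.

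The members and gene lists were chosen with earlier results of these data known. Named genes are the 4 members, up to 4 genes per list with an unadjusted p under 0.05 (by lowest p, or the 2 most abundant where fewer than 2 pass) and the 3 genes most like each member. A peak was assigned by an overlap of at least 1 bp with the gene span widened by 2 kb; 2880 tested genes had no position. Same-numbered libraries were not paired: 2 of 7 pairs had a correlation of deviations over 0.1 (range -0.32 to 0.27). Markers of neural progenitors, glutamatergic neurons, oligodendrocyte lineage and endothelium were also summed. Their levels in WT, KO1 replicates 1 and 3, and the high-collagen libraries were 3403 to 3913, 3599 to 4090 and 3099 to 5562 CPM for progenitors, 133 to 490, 312 to 435 and 30.1 to 115 CPM for glutamatergic neurons, 40.0 to 141, 53.0 to 63.1 and 208 to 348 CPM for the oligodendrocyte lineage, and 1.74 to 4.22, 5.40 to 24.8 and 24.1 to 54.1 CPM for endothelium.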

Additional observations from a re-analysis of the deposited data

Results flagged for a closer look

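The ASIC2 level of KO2 replicate 1, 11.06 CPM, stood apart within the 5 KO libraries: its gap to the nearest library was 0.795 of the whole range, above Dixon's 95% critical value of 0.71. Chance flags about 1 in 20 such groups if their values are normally distributed, and the check was run on CPM, not on log2 CPM. It was also run on ASIC1, ASIC3 and ASIC4, whose gaps were 0.303, 0.130 and 0.192 of the range.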

How the results depend on the processing

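ASIC1 was below 0 in all 25 settings of the KO and WT comparison, from -0.96 to -0.81, and DESeq2 called it in each of its 10 settings there, while edgeR called it in none of the other 15. Leaving out each library gave edgeR fold changes of -0.96 to -0.82 for ASIC1, -0.33 to 1.18 for ASIC2, 0.03 to 0.22 for ASIC3 and -1.37 to -0.64 for ASIC4. The number of genes called in KO against WT was 0 in every edgeR setting, 1243 by DESeq2, 272 by DESeq2 without the 3 high-collagen libraries and 453 to 2871 by DESeq2 with each library left out (589, 453 and 549 without WT replicates 1 to 3, 1762, 775 and 2871 without KO1 replicates 1 to 3, 750 and 569 without KO2 replicates 1 and 2); the DESeq2 leave-outs and the high-collagen alternative were chosen after seeing the data. KO1 against WT gave 1 call with no filter and 172 by DESeq2, KO2 against WT gave 1 and 836, and KO2 against KO1 gave 9 by DESeq2. Leaving out single libraries gave 0 to 3228 edgeR calls for KO2 against WT and 0 to 958 for KO2 against KO1, the highest both without KO1 replicate 2, whose removal brought the KO2 false discovery rate of ASIC1 to 0.0199. The cause was not tested. With the replicate block, whose numbers do not pair the samples, the fold changes were -0.90, -0.06, 0.11 and -1.42 for ASIC1 to ASIC4 and edgeR called 0 genes. Within 2 kb of a listed start, H3K27me3 peaks numbered 1 in the WT list and 4 in the KO list, and H3K36me3 peaks 0 in the WT list; ASIC4 has no listed start and adds none. A window of 10 kb took in 10 H3K36me3 peaks in the WT list and 4 in the KO list. The low counts of ASIC2 and ASIC4, down to 16 in a library, and 1 peak list per genotype limit what can be said of these genes.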
